A study of Mus musculus with 2 samples.

Results

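Mir143 and Mir145a are 2 clustered microRNA (miRNA) genes of smooth muscle and pericytes. They were taken by gene name from the 2202 miRNA genes of the GENCODE M21 annotation, and both were found in each count table. The data are microRNA-seq of the adrenal gland of female B6CASTF1/J mice, a first-generation laboratory hybrid, aged 36 days. There was 1 group of 2 libraries, numbered as biological replicates 1 and 2, with no treatment and no second tissue, age or sex. The labels number the females separately but assign a shared donor identifier to the libraries, so the spread given here may be partly or wholly technical. The whole gland was sequenced, in which fewer cells of a type and less RNA per cell cannot be told apart.

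Both miRNAs are known to be cut from 1 primary transcript that serum response factor and myocardin switch on in smooth muscle. In vessel walls they favour the contractile state of the smooth muscle cell over the dividing one, in part by repressing the transcription factors Klf4, Klf5 and Elk1. In the adrenal gland, smooth muscle cells surround the arterioles of the capsule, and pericytes lie along the sinusoids that run through the cortex to the medulla.

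Sequences of the members are not reported here. Below are 4 other genes used for comparison, each shown by its main mature miRNA. Mir21a is, after Mir494, the gene closest to Mir143 in how it differed between the libraries, among genes with at least 1000 counts. Mir126a is the endothelial miRNA gene, Mir214 a fibroblast gene, and Mir195a a gene of vascular smooth muscle biology that differed in the opposite direction. The seed, bases 2 to 8, which pairs with target messages, is in capitals, and the 4 seeds are all different. The sequences are from RefSeq, GRCm38.p6, written 5′ to 3′. The files count each hairpin as a whole, so they do not tell which arm the reads came from.
mmu-miR-21a-5p: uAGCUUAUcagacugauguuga
mmu-miR-126a-3p: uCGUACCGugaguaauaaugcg
mmu-miR-214-3p: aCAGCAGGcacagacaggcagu
mmu-miR-195a-5p: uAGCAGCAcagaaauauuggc

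Mir143 and Mir145a lie head to tail on the minus strand of chromosome 18 (mm10). Mir143 (ENSMUSG00000065445.3) is the upstream gene, at 61649196 to 61649258, with an annotated hairpin of 63 bases. Mir145a (ENSMUSG00000065592.2) follows at 61647825 to 61647894 with 70 bases, 1301 bases further along. No other annotated gene contains either hairpin, so both are intergenic in M21. The long noncoding gene Carmn (61649625 to 61665537), known from heart and smooth muscle, ends 366 bases upstream of Mir143 on the same strand. Bvht (61639542 to 61647472), a long noncoding gene known from heart development, lies on the plus strand with its end 352 bases from Mir145a.

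Neither gene's count was blurred by a partner on the other strand or by a near-identical copy. Each had the same number of reads with and without regard to strand, and 0 antisense reads in both libraries, which allows 3 counts, or 0.556 CPM, in replicate 1 and 0.990 CPM in replicate 2. CPM scales a gene's sense reads to a library of 1000000 such reads over all miRNA genes. No miRNA gene is annotated opposite either hairpin. Neither shares a stretch of 20 bases with another annotated miRNA hairpin. At 12 bases Mir145a shares a stretch with Mir145b, Mir6402 and Mir8107. Mir145b, a second locus on the same chromosome, had 0 counts in replicate 1 and 5 in replicate 2, and Mir6402 and Mir8107 had at most 2 in a library.

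Mir143 was among the most abundant miRNA genes of the gland. It had 156471 sense counts in replicate 1 and 163558 in replicate 2. These are 28989 CPM (95% Wilson interval 28848 to 29131) and 53980 CPM (53726 to 54235), a mean of 41485 ± 17671 CPM (SD, n = 2). Replicate 2 thus held more Mir143 reads although it was the shallower library, with 3029977 sense miRNA counts against 5397603. Mir143 ranked 10th by level in replicate 1 and 6th in replicate 2 of the 2202 genes. Reads that mapped to several places, 28.5% of all reads in replicate 1 and 30.6% in replicate 2, were assigned to no gene. Genes with near-identical copies may therefore rank too low, and the ranks and shares of the members hold among counted reads only. Intervals cover the counting error of reads within a library only, and PCR copies cannot be told from separate molecules.

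Mir145a was also well above detection, at a lower level. It had 6751 counts in replicate 1 and 15929 in replicate 2. These are 1251 CPM (1221 to 1281) and 5257 CPM (5176 to 5339), a mean of 3254 ± 2833 CPM (SD, n = 2). The SD is nearly as large as the mean, so the mean level of Mir145a is poorly fixed by these libraries. Its rank was 68 in replicate 1 and 34 in replicate 2.

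Together the 2 genes held 3.02% of the sense miRNA counts in replicate 1 and 5.92% in replicate 2, a mean of 4.47% ± 2.05. Of all reads in the tables, those that were unmapped, multi-mapped or mapped elsewhere included, Mir143 made up 1.12% and 2.17% and Mir145a 0.0483% and 0.212%.

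**Figure D1:**
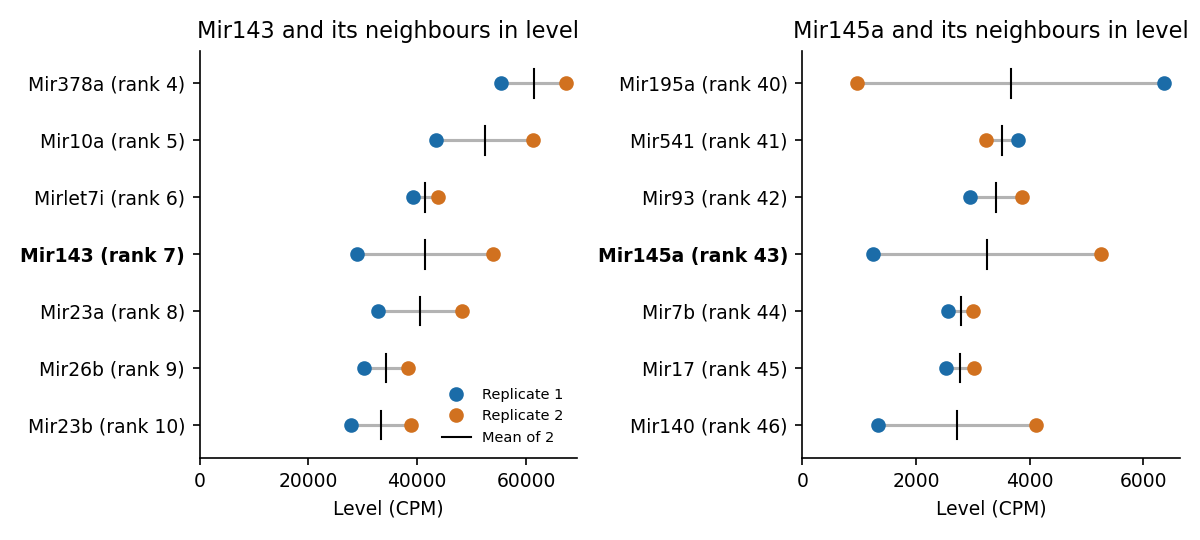
Level in CPM (horizontal axis, from 0) of Mir143 and Mir145a and of the 3 genes directly above and below each by mean level. Blue points are replicate 1, orange points replicate 2 and black ticks the mean of the 2 libraries. The values of Mir145a, 1251 and 5257 CPM, span the mean levels of its 6 neighbours.

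The place of Mir143 in the order of levels was fixed only in part. Directly above it by mean were Mir378a of energy metabolism (55423 and 67380 CPM in replicates 1 and 2), Mir10a of a Hox cluster (43451 and 61349) and Mirlet7i of the let-7 family (39256 and 43746). Directly below were Mir23a of a vascular cluster (32833 and 48267 CPM), Mir26b (30216 and 38237) and Mir23b (27764 and 38840). Of these 6, Mir378a, Mir10a and Mir23b kept their order with Mir143 in both libraries, and Mir378a alone had values that did not overlap with those of Mir143. All 6 differed from Mir143 by less than 2.19-fold in geometric mean, the limit for 2 genes under the pooled spread between the libraries (a coefficient of variation of 41.6%). Over the other 338 genes with at least 10 counts in each library, 13 lay within that limit of Mir143. Still, 329 genes were below Mir143 in both libraries and 5 above it in both (Mir126a, Mirlet7g, Mirlet7b, Mir378a and Mir10a). The order changed for Mirlet7i, Mir23a, Mir26b and Mir22.

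Mir145a had a less certain place. The genes around it by mean were Mir195a (6372 and 959 CPM), Mir541 (3789 and 3233) and Mir93 (2956 and 3874) above, and Mir7b (2569 and 3010), Mir17 (2528 and 3027) and Mir140, known from cartilage (1325 and 4120), below. The values of all 6 overlapped with those of Mir145a, and each of them changed its order with Mir145a between the libraries. Of the other 338 detected genes, 33 were above Mir145a in both libraries, 271 below it in both, and 34 on different sides of it. Within 2.19-fold of it were 31 genes.

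Mir143 was higher than Mir145a in both libraries, and their ranges were far apart. The geometric mean of Mir143 was 15.4-fold that of Mir145a, beyond the 2.19-fold limit. An unpaired exact permutation test of 2 values against 2 cannot give a two-sided p below 0.333. The 2 genes were read in the same libraries, so their values are paired, and this gap was not tested. Among 98 pairs of neighbouring miRNA genes (same strand, less than 10 kb apart, at least 100 counts each over both libraries), the gap in level between the members was larger in 20 and had a median of 3.56-fold. These are ratios of reads, and library preparation can favour some sequences over others, so amounts of the 2 miRNAs may differ by another factor.

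Both members were higher in replicate 2. With TMM scaling, which assumes that most genes do not differ, Mir143 was 2.30-fold higher (log2 ratio of replicate 1 over replicate 2 -1.20) and Mir145a 5.18-fold higher (-2.37). Both genes were called by a two-sided exact binomial test, adjusted by Benjamini-Hochberg over the 434 genes with 10 or more counts, with adjusted p-values too small for the calculation to represent. That test counts only sampling of reads, and it called 58.5% of the 434 genes and 28.3% as higher in replicate 2. Among the 178 genes whose libraries together gave 1000 counts or more it called 88.8%, and 43.8% as higher in replicate 2, so a call at the depth of Mir143 and Mir145a is the usual outcome. It compares these 2 libraries and no conditions.

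With the pooled spread as the error (edgeR's exact test with the common dispersion), neither member was called. The unadjusted p was 0.172 for Mir143 and 0.00913 for Mir145a, and the adjusted p was 0.999 and 0.396. That test called 0% of the 434 genes, with 24 at an unadjusted p under 0.05. The dispersion was estimated from these same libraries and takes in every difference between them.

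The size of the difference was in the upper range for well-counted genes. Among the 178 genes with at least 1000 counts, the ratio of Mir145a was the 7th largest in either direction and the 3rd largest towards replicate 2, and that of Mir143 the 25th and the 10th. The median size over the 434 genes was 0.58 on the log2 scale, and the median ratio was 0.08. Scaling to total counts moved every ratio by 0.30 towards replicate 1, giving -0.90 for Mir143 and -2.07 for Mir145a, both still called. The genes called towards replicates 1 and 2 then numbered 189 and 83, in place of 131 and 123 with TMM. Across 284 genes with at least 100 counts the ratio followed the GC content of the hairpin (Spearman's rho 0.348, across genes, which share the 2 libraries). GC content was 55.6% in Mir143 and 48.6% in Mir145a, beside a median of 50%. With that trend removed, a setting added after the data were seen, the log2 ratios were -1.35 and -2.32.

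**Figure D2:**
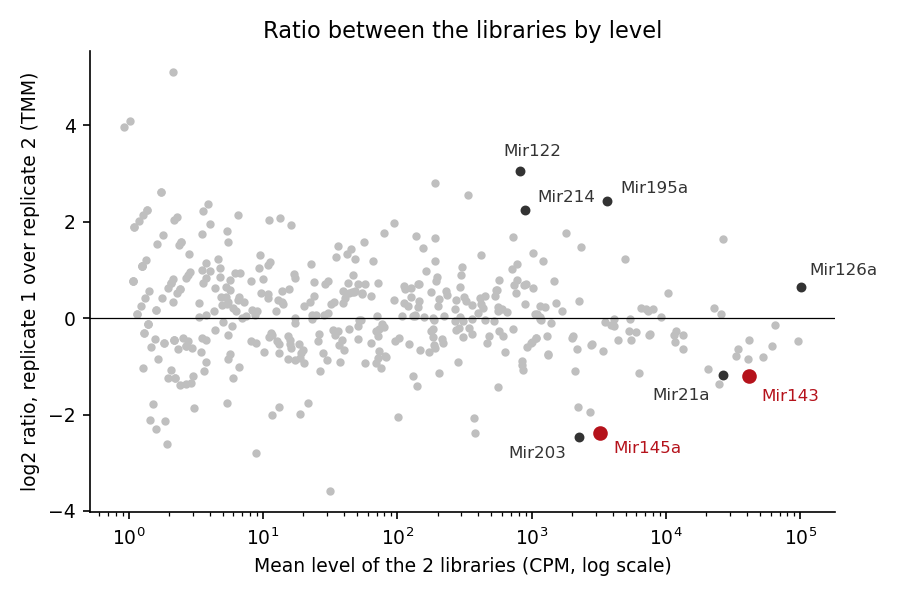
The log2 ratio of replicate 1 over replicate 2 with TMM scaling (vertical axis) against the mean level in CPM (horizontal log axis) for the 434 genes tested. Red points are Mir143 at -1.20 and Mir145a at -2.37, below 0 and so higher in replicate 2, while Mir126a, Mir195a, Mir214 and Mir122 lie above 0.

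The 2 genes did not differ by the same factor. Mir143 had 23.2 reads for each Mir145a read in replicate 1 and 10.3 in replicate 2. Mir145a was 4.14% (95% Wilson interval 4.04 to 4.23%) of the pair's 163222 reads in replicate 1 and 8.87% (8.74 to 9.01%) of its 179487 reads in replicate 2. The ratio thus changed by 2.26-fold (95% interval 2.19 to 2.32 for counting error), and Fisher's exact test on the 4 counts gave a two-sided p too small to represent. No scaling enters this comparison, since both genes are read in the same library.

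Other neighbouring miRNA genes also differed from each other between the libraries. The difference in log2 ratio within the pair was 1.17 for Mir143 and Mir145a, beside a median of 0.72 over the 98 pairs. Of the other 97 pairs, 71 (73.2%) differed by less and 26 by more. The largest differences were in Mir667 and Mir376c (3.00), Mir380 and Mir323 (2.60) and Mir299a and Mir380 (2.50), all from the imprinted cluster on chromosome 12, which supplied 43 of the 98 pairs. Under the pooled spread, 4 of the 98 differences exceeded the limit of 2.26 on the log2 scale, and that of Mir143 and Mir145a did not.

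In direction, Mir143 and Mir145a went together. With TMM their log2 ratios had the same sign, as in 50 of the 98 pairs, and both genes were higher in replicate 2, as in 29. With total counts these numbers were 56 and 16, and with DESeq2 size factors 49 and 32. Their mean log2 ratio, -1.79, was the lowest of the 98 pairs. The next lowest were Mir376c with Mir376b (-1.40) and Mir34b with Mir34c (-1.26). The order of these means is the same under any scaling of the libraries.

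**Figure D3:**
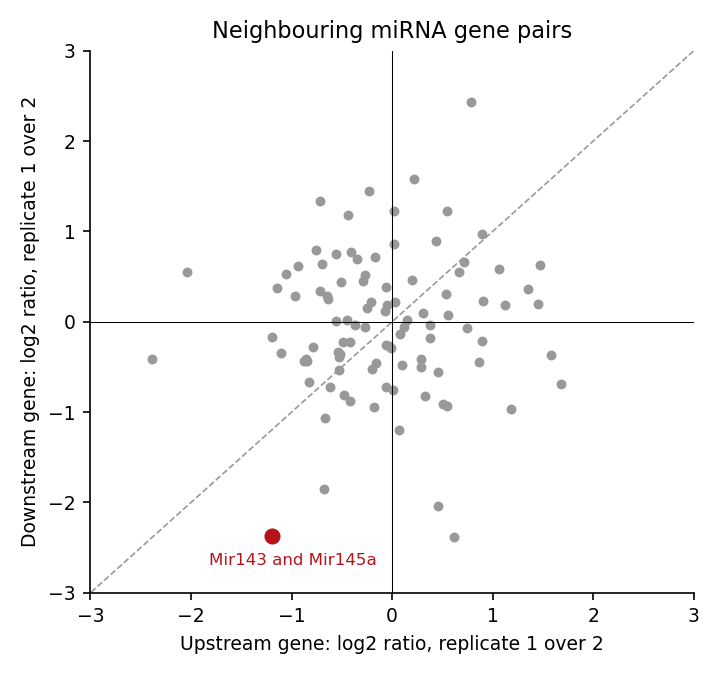
The log2 ratio of replicate 1 over replicate 2 of the downstream gene (vertical axis) against that of the upstream gene (horizontal axis) in 98 pairs of neighbouring miRNA genes. The dashed line marks equal ratios, and Mir143 and Mir145a (red) lie at -1.20 and -2.37, to the lower left and below the line.

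Over these 2 libraries, which give each gene a single ratio, several genes outside the cluster were close to each member. Nearest to Mir143 (log2 ratio -1.20) among genes with at least 1000 counts were Mir494 (-1.19), Mir21a (-1.17), Mir467e (-1.15), Mir335 (-1.14) and Mir107 (-1.09). Mir21a, known from growing and remodelling tissue, had 18943 CPM in replicate 1 and 34600 in replicate 2. Mir143 was thus 1.53 times Mir21a in replicate 1 and 1.56 times in replicate 2. Mir21a was listed for its near-equal ratio between the libraries, so this closeness follows from the choice. Nearest to Mir145a (-2.37) were Mir376c (-2.38), Mir203 of the epidermis (-2.47), Mir196b of a Hox cluster (-2.08), Mir140 (-1.94) and Mir34c (-1.85). Mir376c, at 143 and 607 CPM, and Mir203, at 822 and 3691 CPM, differed between the libraries by about as much as Mir145a.

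Other genes of vascular smooth muscle biology were called in both directions, more of them towards replicate 2. Of a list of 22 such genes, 19 had enough counts, and 12 of these were called towards replicate 2 and 6 towards replicate 1. Their median log2 ratio was -0.36. Beside this, the call rate towards replicate 2 was 28.3% over all genes and 43.8% over those with at least 1000 counts. Over all genes the median ratio was 0.08. With total counts the list's split was 9 and 7 and its median -0.06. Mir146 then turned towards replicate 1, and the calls of Mir155 and Mir204 were lost. Higher in replicate 2 were Mir21a, the growth-linked pair Mir221 (640 and 1090 CPM) and Mir222 (130 and 167), Mir322 of a growth-control cluster (15323 and 25855), Mir10a, Mir31 (824 and 1011), Mirlet7g (90540 and 101505) and Mirlet7d (13152 and 13684). Mir195a, of the miR-15 and miR-16 family, went the other way at 6372 and 959 CPM (log2 ratio 2.43). Mir24-1, Mir24-2, Mir26a-2, Mir29b-1 and Mir29b-2 were also higher in replicate 1 and Mir26a-1 in replicate 2, but each of these shares at least 20 bases with another locus and is uncertain. The same holds for Mir146, one of the 12 called towards replicate 2, and for Mir1a-2. The list's genes of heart and skeletal muscle, Mir1a and Mir133a, were at or near 0, with Mir1a-1 and Mir133a-2 at 0 counts in both libraries, Mir133a-1 at 0 and 1 and Mir1a-2 at 11 and 2. Copies of Mir1a and Mir133a elsewhere can hide reads that map to several places.

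Genes of the cells next to smooth muscle, endothelial cells and fibroblasts, differed in both directions. The endothelial gene Mir126a had 133209 CPM in replicate 1 and 69285 in replicate 2, so that Mir143 had 0.218 reads for each Mir126a read in replicate 1 and 0.779 in replicate 2. Mir126b, on the opposite strand of Mir126a, had 29 and 14 counts and was not called. The ratios of Mir145a to Mir126a were 0.00939 and 0.0759. The fibroblast gene Mir214 had 1528 and 264 CPM (log2 ratio 2.23), while Mir199b had 13.9 and 20.8 CPM (-0.88, uncertain because of a related copy), Mir199a-2 had 40 and 12 counts with no call, and Mir199a-1 had 0 counts in both. The summed level of the 4 fibroblast genes was 1549 CPM in replicate 1 and 288 in replicate 2, and most of it was Mir214. The summed level of Mir143, Mir145a and Mir145b was 30240 and 59239 CPM.

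Markers of other cells and tissues also differed between the libraries, in both directions. Mir122 of hepatocytes had 1503 CPM in replicate 1 and 146 in replicate 2. The 3 red-cell genes summed to 1210 and 576 CPM, with 3 of 3 called higher in replicate 1, beside 30.2% of all genes tested. They were led by Mir451a (722 and 389 CPM). The 4 kidney and gut genes, led by Mir192 (71.5 and 24.8), summed to 136 and 57.4 CPM, with 3 of 3 tested called higher in replicate 1. The 5 white-cell genes, led by Mir150 (547 and 724), summed to 1928 and 2617 CPM. Of these, 5 of 5 were called higher in replicate 2 with TMM and 3 of 5 with total counts. Beside this, 28.3% of all genes tested were called towards replicate 2 with TMM, and 43.8% of those with at least 1000 counts. The 7 epithelial genes summed to 873 and 3729 CPM, almost all of it Mir203, with 2 called higher in replicate 2 and 1 in replicate 1. The 5 striated-muscle genes summed to 490 and 543 CPM, led by Mir206 (474 and 494), with 3 of 3 tested called higher in replicate 2 with TMM and 2 with total counts. The 5 neuroendocrine genes summed to 32103 and 25898 CPM, led by Mir375 (28922 and 22246). With TMM, 1 of the 5 was called higher in replicate 1 and 2 in replicate 2. The 1 called towards replicate 1 was Mir375 (log2 ratio 0.08), whose call was lost with DESeq2 size factors. Mir486, Mir194-2, Mir7-1 and Mir7-2, counted in these lists, each share at least 20 bases with another locus and are uncertain. The part of the marker differences in the values of Mir143 and Mir145a was not tested.

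**Figure D4:**
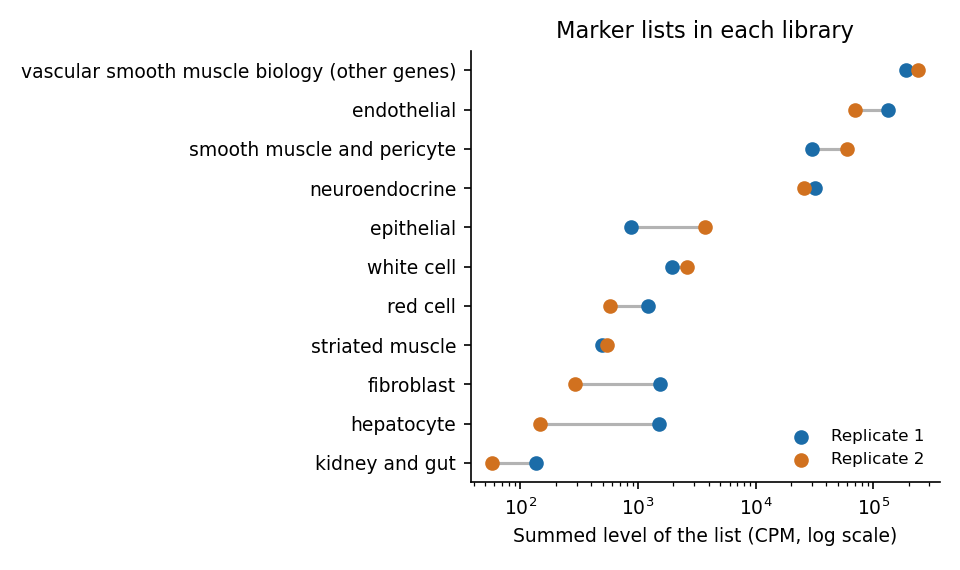
Summed level in CPM (horizontal log axis) of each marker list in replicate 1 (blue) and replicate 2 (orange). The smooth muscle and pericyte list, nearly all of it Mir143 and Mir145a, stands at 30240 CPM in replicate 1 and 59239 in replicate 2, and the endothelial list at 133214 and 69289 CPM.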

How the data were processed

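The authors deposited raw read counts per miRNA gene for each library in 3 columns without a header, which the values show to be unstranded, sense and antisense counts of the same reads. The notes deposited with each library give mm10 and GENCODE M21. Which aligner and counter were used is not given in the sources used here. The sense counts were used, and the 4 summary entries that name no gene (61.4% of reads in replicate 1 and 59.8% in replicate 2) entered neither library sizes nor tests. Multi-mapped reads were assigned to no gene.

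Scaling was TMM (edgeR 4.0.16, R 4.3.3) over genes with a summed count of 10 or more, and ratios had a prior of 0.5 counts. The exact binomial test came from scipy 1.17.1 and the Benjamini-Hochberg adjustment, over all genes tested, from statsmodels 0.14.6, at a threshold of 0.05. The pooled spread is edgeR's common dispersion from an intercept-only fit. It enters edgeR's exact test as the error, and gives the limits for 2 genes or 2 pairs as the middle 95% of a log-normal spread. Quasi-likelihood tests could not be fitted, with 1 library on each side. The tests were run on simulated data first. Those data had counting noise alone or a smaller spread than these libraries, so the tests were not checked at the present spread.

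Genes named are the 2 members, the 3 genes above and below each by mean CPM, the 5 genes of nearest ratio among those with at least 1000 counts, the members of the vascular, fibroblast and endothelial lists, the highest gene of the other lists and the 3 neighbouring pairs with the largest differences. Mir22, Mirlet7b, Mir6402, Mir8107, the other pairs named and the other genes of chromosome 18 were named after their values were seen. So were Mir486, Mir194-2, Mir7-1 and Mir7-2. All 22 genes of the vascular list were matched, Mir146a through a RefSeq synonym of Mir146. Members and lists were chosen with earlier results of these data known. Alternatives were other scalings (total counts, DESeq2 1.42.0 size factors), filters, priors, strand, thinning, a 2-fold minimum and leaving out a library.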

Additional observations from a re-analysis of the deposited data

How the results depend on the processing

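The direction of both ratios between the libraries, and their calls against counting error, held under total counts, DESeq2 size factors, filters of 1 and 100 counts, a prior of 2, counts without strand, thinning of the deeper library and a test against a 2-fold difference. The 2-fold test used TMM scaling only. With total counts Mir143 was 1.86-fold higher in replicate 2, so its call beyond 2-fold depends on the scaling. The log2 ratio of Mir143 ran from -1.35 to -0.90 and that of Mir145a from -2.45 to -2.07 over all alternatives, the GC correction included. Only the pooled spread as the error ended the calls (-1.20, adjusted p = 0.999 and -2.37, adjusted p = 0.396 in edgeR's exact test). The genes called numbered 254 with the settings of the report, 0 with the pooled spread, 42 against a 2-fold difference, and between 230 and 272 otherwise. Of the called genes 48.4% were higher in replicate 2, but 30.5% with total counts.

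Over all reads of the tables, the level of Mir143 was 16458 for each 1000000 reads and the 2 genes held 1.78%, both lower because the denominator is larger. With 1 library left out, Mir143 had between 28989 and 53980 CPM, Mir145a between 1251 and 5257, and the pair between 3.02% and 5.92%. The change in the ratio of Mir143 to Mir145a was 2.25-fold after thinning. The share of other neighbouring pairs that differed less was between 71.7% and 74.0% with other distances and counts. No paired analysis of conditions was possible because there is a single group. Depth did not limit the members, where 1 count equals 0.185 CPM (replicate 1) or 0.330 CPM (replicate 2). The number of libraries did.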

Other observations

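Chromosome 18 holds 57 annotated miRNA genes, of which 9 had at least 10 counts in each library. Beside Mir143 and Mir145a these were Mir378a, Mir122, Gm49347, Mir187, Mir1949, Mir7219 and Mir1948. With TMM, 8 of the 9 had a negative log2 ratio of replicate 1 over replicate 2, towards replicate 2, and Mir122 had a ratio of 3.06. With total counts 7 of the 9 were negative. The median ratio over the 434 genes tested was 0.08 with TMM and 0.37 with total counts. These medians cover more genes than those with at least 10 counts in each library, whose share of negative ratios is not given here. Mir143 and Mir145a are among the negative genes, and a pattern of the chromosome was not tested. Mir378a, which lies nearest to the cluster, had a ratio of -0.58. Gm49347 (48.5 and 53.1 CPM) and Mir1949 (12.4 and 18.2 CPM) were called higher in replicate 2 by the exact binomial test with TMM (adjusted p = 0.00626 and 0.00332), and Mir187 (36.7 and 35.6 CPM) was not called (0.198). Mir7219 (-0.85, adjusted p = 0.0807) and Mir1948 (-0.91, adjusted p = 0.117) were not called either. Over all genes tested, 28.3% were called towards replicate 2 with TMM. With total counts the ratio of Mir187 turns towards replicate 1, as its CPM values show.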
